A study of Mus musculus with 14 samples.

Results

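The fibroblast growth factor homologous factors (FHFs) Fgf11, Fgf12, Fgf13 and Fgf14 were examined in 7 types of neuron from the medial vestibular nucleus of the mouse, a cell group of the brainstem that processes balance and head movement. The genes were found by symbol in the annotation of the array, and all 6 of their probe sets in the deposited table were used, so the family made up 4 of 16244 genes and 6 of 30843 probe sets. Single neurons came from brainstem of the YFP-16, GIN and GlyT2-13 mouse lines on a C57BL/6 background, at postnatal days 24 to 32. Cells were typed by their transmitter-related, ion channel and marker genes. Their amplified cDNA was pooled by type, with 2 excitatory (E1, E2) and 5 inhibitory types (I1a, I1b; I2; I3a, I3b), and each pool was hybridised to 2 arrays as technical replicates, 14 in all. Every group carries the same labels for strain, age range and the 3 lines. The labels give neither the number of cells or animals in a pool nor which line a cell came from. Whether the lines were spread evenly over the types is therefore not known. The lines drive their fluorescent reporters from regulatory sequence of Thy1 (YFP-16), Gad1 (GIN) and Slc6a5 (GlyT2-13) and mark subsets of neurons, so unmarked cells may not be represented. Each type has a single pool, so what is said of a type rests on 1 sample. The type E3 that the design names was not analysed here.

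FHFs resemble secreted fibroblast growth factors in sequence but stay inside the cell, where they do not act through the usual growth factor receptors. They bind the cytoplasmic tail of voltage-gated sodium channel alpha subunits, are concentrated with them at the axon initial segment, and shift the voltage at which the channels inactivate. Each gene can start transcription at more than 1 place, and the alternative amino termini differ in how strongly they keep channels from recovering after a spike. Loss of Fgf14 in mice gives ataxia and weakens the spontaneous firing of Purkinje cells, the output neurons of the cerebellar cortex that project to the vestibular nuclei.

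The annotation of the array does not say from which start a measured transcript came. The 4 starts of Fgf13, the member whose level varied most across the pools, are shown to make that limit concrete. RefSeq places Fgf13 on chromosome X, positions 59062139 to 59585572 of GRCm38.p6, and its outermost and innermost listed starts lie 451 kb apart. The 250 bases before each start follow, 5′ to 3′, from the outermost start inward. Capitals mark the GC box GGGCGG on either strand.
Fgf13, chrX:59585573-59585822, - strand: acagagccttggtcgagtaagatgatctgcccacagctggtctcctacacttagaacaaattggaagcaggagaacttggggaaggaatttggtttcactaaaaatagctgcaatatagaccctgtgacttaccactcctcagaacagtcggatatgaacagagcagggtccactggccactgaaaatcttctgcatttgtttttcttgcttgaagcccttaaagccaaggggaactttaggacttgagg
Fgf13, chrX:59567349-59567598, - strand: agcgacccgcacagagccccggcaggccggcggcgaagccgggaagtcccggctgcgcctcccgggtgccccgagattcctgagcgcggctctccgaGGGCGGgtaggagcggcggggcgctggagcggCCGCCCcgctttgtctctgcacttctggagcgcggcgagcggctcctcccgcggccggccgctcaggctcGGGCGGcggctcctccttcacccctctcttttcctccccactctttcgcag
Fgf13, chrX:59166089-59166338, - strand: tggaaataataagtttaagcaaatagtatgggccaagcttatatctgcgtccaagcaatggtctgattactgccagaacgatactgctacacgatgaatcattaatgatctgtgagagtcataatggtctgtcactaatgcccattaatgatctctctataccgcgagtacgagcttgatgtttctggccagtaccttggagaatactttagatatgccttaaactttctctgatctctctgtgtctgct
Fgf13, chrX:59134437-59134686, - strand: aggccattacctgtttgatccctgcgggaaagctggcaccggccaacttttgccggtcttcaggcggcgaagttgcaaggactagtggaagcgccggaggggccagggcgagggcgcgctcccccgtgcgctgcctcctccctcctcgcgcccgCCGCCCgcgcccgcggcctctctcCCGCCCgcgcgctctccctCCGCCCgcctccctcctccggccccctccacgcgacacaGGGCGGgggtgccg
The second and the last of these windows held 3 and 4 GC boxes and had GC contents of 74.8% and 74.4%, against a median of 52.4% over 32851 such windows of the mouse genome. The other two Fgf13 windows held none, with GC contents of 45.6% and 40.4%. A GC box was present in 32.7% of all windows. Neither the TATA box TATAAA, found in 12.4% of all windows, nor the cyclic AMP response element TGACGTCA, found in 1.55%, was in any of the 10 windows of the family (both strands searched). Of the Fgf12 windows (chromosome 16, gene positions 28157783 to 28753243) 3 of 4 held a GC box. The table lists 1 window each for Fgf14 (chromosome 14, 123974441 to 124677686), which held 2 GC boxes, and for Fgf11 (chromosome 11, 69796068 to 69802944), which held none. All 4 genes lie on the minus strand. These matches describe letters only.

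All levels are the deposited log2 signals, in which 1 unit is a doubling, and values of different probe sets are not set against each other because each binds with its own strength. The lowest value of the table was 2.387, the floor of the scale. A gene was tested when the mean of at least 1 type reached 5, which 4409 of 16244 genes (27.1%) did, among them Fgf12, Fgf13 and Fgf14 but not Fgf11. On each array 15.1% to 16.4% of probe sets reached 5. Across tested genes the 2 arrays of a pool correlated at r = 0.981 to 0.992 and arrays of different types at 0.847 to 0.960. The neuronal markers Rbfox3, Snap25 and Syt1 were above 5 in every pool. The 5 astrocyte, 3 microglia, 3 endothelial, 2 Purkinje cell and 2 oligodendrocyte precursor markers measured stayed below 5 in every pool. Mbp, a myelin gene, stood at 5.50 in I1b and 6.20 in I3a and at 3.43 or lower in the other pools, while Mog, a defining oligodendrocyte marker, was at 2.48 or lower throughout. Slc17a6, the vesicular glutamate transporter of excitatory cells, read 11.11 in E1 and 10.98 in E2, but also 10.48 in I1b, 8.60 in I1a and 6.93 in I3a, pools labelled inhibitory, against 3.11 in I2 and 3.19 in I3b. Slc32a1, which loads inhibitory transmitters into vesicles, read 5.41 to 6.60 in the E pools and 9.20 to 9.76 in the I pools. In pooled cells, fewer cells that express a gene and less RNA per cell cannot be told apart.

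Fgf13 varied most. Its level was 10.59 and 10.53 in I2, 8.53 and 8.56 in I3a, and 8.10 and 8.40 in I3b on the 2 arrays of each pool. In I1b it was 8.02 and 8.21, in E2 7.23 and 7.30, in I1a 6.41 and 6.42, and in E1 6.12 and 5.94. I2 stood above every other array and E1 below every other, and of neighbours in this order the arrays of I3b and I1b alone overlapped. The pool means spanned 4.53 log2 units, and 2.09% of the 4409 tested genes had a wider span, the median being 1.13. Fgf13 also binds and stabilises microtubules in growing axons of mouse cortical neurons.

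Fgf12, a member with prominent expression in brain and heart, was read by 2 probe sets. Probe set 1440270_at, the brighter, read 9.13 and 9.02 in I2, 8.55 and 8.35 in E2, 8.57 and 8.13 in E1, and 8.09 and 8.23 in I1b. It read 7.81 and 7.89 in I3a, 7.55 and 7.14 in I1a, and 6.93 and 7.04 in I3b. I2 was thus highest and I3b lowest, with no overlap with their neighbours, while E2, E1 and I1b overlapped in turn. Probe set 1436432_at read from 7.40 in I2 and 7.25 in I1b to 6.67 in E1, 6.48 in E2, 6.08 in I3a, 5.87 in I1a and 5.36 in I3b as pool means. It placed I2 highest and I3b lowest as well, but had I1b above E1 and E2 without overlap. Over the 7 pools the probe sets correlated at r = 0.895 and rho = 0.857.

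Fgf14 lay lower on its scale and spanned 1.36 log2 units. Probe set 1447480_at read 6.94 and 6.69 in I2, 6.33 and 6.66 in I3b, 6.39 and 6.04 in I3a, and 6.17 and 6.00 in E1. It read 5.87 and 6.24 in I1b, 5.70 and 5.63 in E2, and 5.14 and 5.77 in I1a. I2 was again highest, but its neighbours I3b, I3a, E1 and I1b ran together, as did E2 and I1a. The other Fgf14 probe set, 1458830_at, was below 4 on every array. It had pool means of 3.57 in I3a, 3.54 in I2 and 2.96 in I3b and of 2.73 to 2.76 in the E and I1 pools, close to the floor.

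Fgf11 was at or near the floor in all pools. Its single probe set, 1439959_at, read 3.31 and 2.53 in E1, and from 2.39 to 2.73 on the other 12 arrays. No array reached 5, so this gene was left out of the tests below. With 1 probe set, absence of the transcript and a probe set that binds poorly cannot be told apart.

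**Figure D1:**
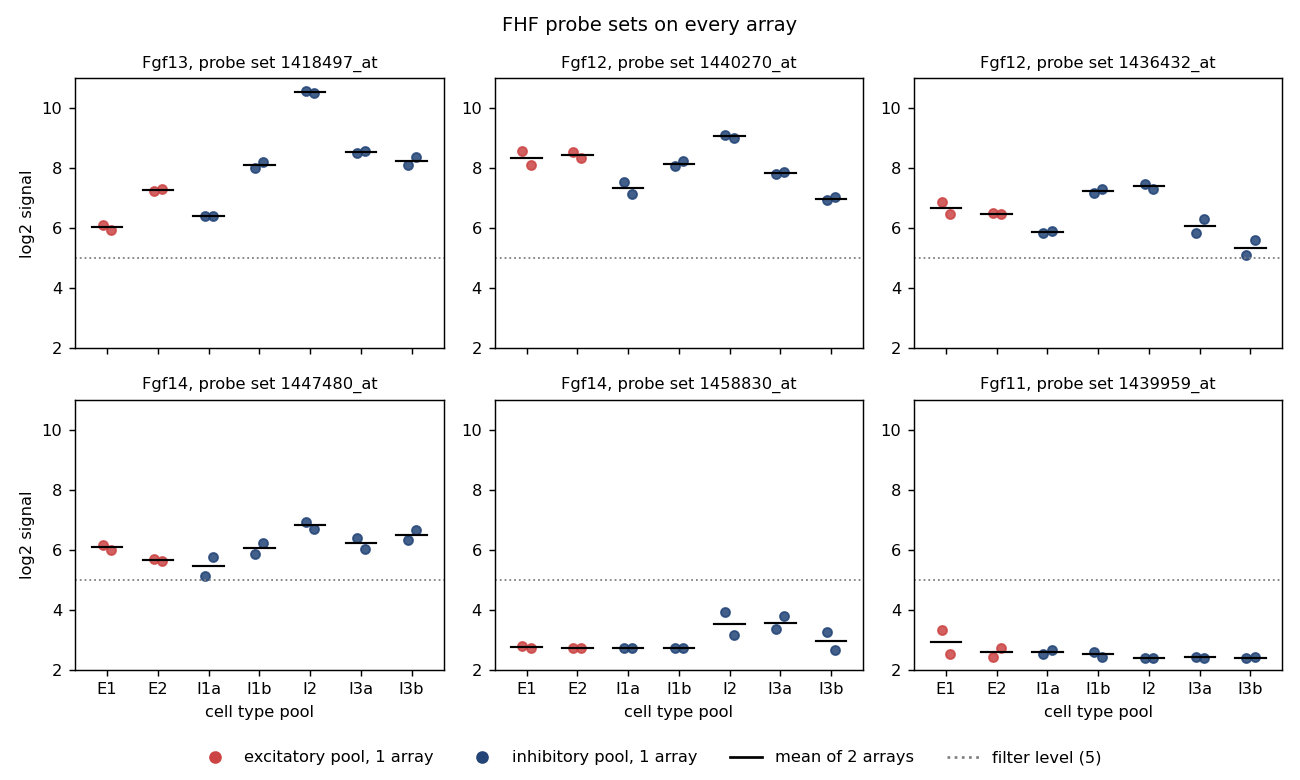
Log2 signal of the 6 FHF probe sets (vertical axis) on the 14 arrays of 7 cell type pools (horizontal axis). Each point is 1 array, the bar is the mean of the 2 arrays, and the dotted line is the level of 5 used as filter. Fgf13 runs from about 6 in E1 to 10.56 in I2, whereas Fgf11 and the second Fgf14 probe set stay below 4 on every array.

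How types differ from each other was asked for all 21 pairs of types in 1 limma fit of the 14 arrays, in which the error is the spread between technical replicates. These p-values therefore compare pools, not cell types, and nothing states that the arrays came from separate animals. A gene was called at an adjusted p under 0.05 (Benjamini-Hochberg, over all 4409 genes) with a difference of at least 1 log2 unit. Fgf13 was called in 14 of 21 pairs, Fgf12 in 8 and Fgf14 in 3. Taken over all tested genes and all pairs, 15.6% were called, or 3.27 pairs per gene, and single pairs ranged from 6.31% (E1 against I1b) to 25.8% (I2 against I1a). Fgf12 and Fgf13 were thus called in more pairs than the average gene and Fgf14 in about as many.

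I2 had the highest mean of all 3 tested members, and it was the highest pool for 1287 of the 4409 tested genes (29.2%). Fgf13 was higher in I2 than in each of the other 6 types, by 4.53 log2 units over E1 (SE 0.12, adjusted p 4.46e-11), 4.14 over I1a, 3.29 over E2, 2.45 over I1b, 2.31 over I3b and 2.02 over I3a (adjusted p 7.15e-08). In these 6 pairs 23.7% (E1), 25.8% (I1a), 24.1% (E2), 20.6% (I1b), 17.4% (I3b) and 23.6% (I3a) of genes were called. Fgf12 was higher in I2 than in I3b by 2.09 (SE 0.16, adjusted p 8.58e-07), than in I1a by 1.73 and than in I3a by 1.23. Its differences from I1b (0.91), E1 (0.73) and E2 (0.63) were below 1 log2 unit and not called. Fgf14 was higher in I2 than in I1a by 1.36 (SE 0.22, adjusted p 0.00027) and than in E2 by 1.15.

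Among the remaining 15 pairs, Fgf13 was called in 8, and in 7 of those E1 or I1a was the lower type. E1 and I1b, the pair with the smallest share of genes called, differed in Fgf13 by -2.09 (E1 minus I1b, SE 0.12, adjusted p 4.99e-07), with 6.03 in E1 and 8.11 in I1b. E1 was also below I3a (-2.52, with 18.1% of genes called in that pair) and I3b (-2.22, 17%), and I1a below I3a (-2.13, 14.3%) and I3b (-1.83, 14.2%). E2 minus I3a was -1.28, in a pair with 14.9% called. The largest Fgf13 difference not called was that between E2 and I3b, -0.98, just under the limit of 1. In E2 against I1b (8.1% of genes called) and I1b against I3a (16.2%) no member was called. For Fgf12 the low types were I3b and I1a: E1, E2 and I1b exceeded I3b by 1.36, 1.46 and 1.18 (17%, 15% and 15.4% of genes called), and E1 and E2 exceeded I1a by 1.0001 and 1.10 (11.6% and 9.93% called). These Fgf12 values are of the brighter probe set. By 1436432_at the means of E1 (6.67) and E2 (6.48) were less than 1 log2 unit above that of I1a (5.87). For Fgf14 the 1 further call was I1a minus I3b, -1.04 (SE 0.22, adjusted p 0.00294). With arrays centred on their median or quantile normalized, Fgf12 was called in 6 pairs and Fgf14 in 1, while Fgf13 stayed at 14.

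**Figure D2:**
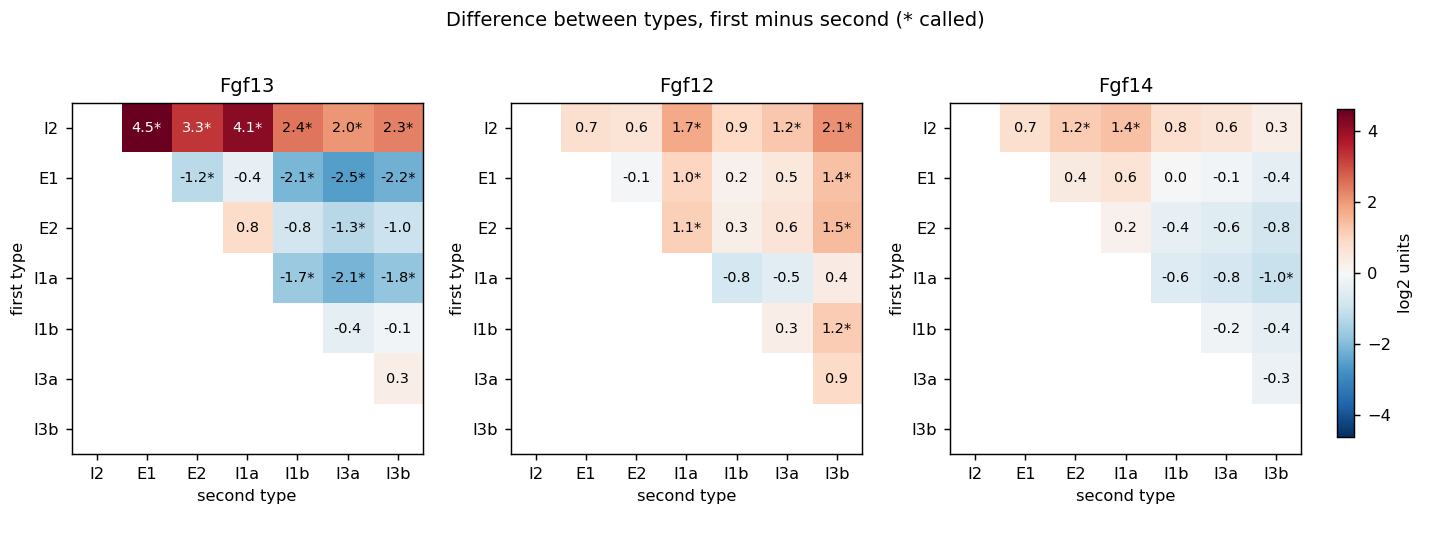
Difference in log2 signal between each pair of types, the type on the vertical axis minus the type on the horizontal axis, for Fgf13, Fgf12 and Fgf14. Stars mark called differences by the 14-array limma fit. Fgf13 carries 14 stars, all 6 in the I2 row among them, Fgf12 carries 8 and Fgf14 carries 3.

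Whether excitatory and inhibitory types differ was asked on pool means, with 2 E pools and 5 I pools. Fgf13 averaged 6.65 in the E pools and 8.38 in the I pools, a difference of -1.73 (SE 0.95, 95% confidence interval -3.94 to 0.48, adjusted p 0.780). Fgf12 averaged 8.40 in E and 7.88 in I, a difference of 0.51 (interval -0.69 to 1.72, adjusted p 0.845). Fgf14 averaged 5.87 in E and 6.21 in I, a difference of -0.33 (interval -1.17 to 0.50, adjusted p 0.856). For each member the E and I pools overlapped: I1a lay between E1 and E2 in Fgf13, and the Fgf12 levels of the E pools lay inside the range of the I pools. Limma on pool means called 0 of the 3 members and 0.0227% of all tested genes, the 1 gene being Slc32a1 (-3.48, adjusted p 0.0396), and 0 members had an unadjusted p under 0.05, a level that 6.19% of genes reached. Without I1a, I1b and I3a, the I pools with Slc17a6 above 5 (a setting added once the levels were known), the Fgf13 difference was -2.76 (adjusted p 0.280). Without E1 it was -1.11 and without I2 -1.18, and in none of these settings was Fgf13 called.

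How the inhibitory families I1 and I3 differ was asked with 2 pools of each, in a fit of 4 families on pool means. Fgf13 averaged 7.27 in I1 and 8.40 in I3, a difference of -1.13 (SE 0.66, interval -2.76 to 0.50, adjusted p 0.589). Fgf14 averaged 5.75 in I1 and 6.35 in I3, a difference of -0.60 (SE 0.31, interval -1.36 to 0.16, adjusted p 0.551). Both I3 pools lay above both I1 pools in these 2 genes, as they did in 23% of all tested genes. Fgf12 averaged 7.75 in I1 and 7.42 in I3, a difference of 0.34 (interval -0.67 to 1.34, adjusted p 0.815), and its pools overlapped. Limma called 0 of the 3 members and 0% of all tested genes. None of the 3 members had an unadjusted p under 0.05, against 11.2% of all genes. Without I1a the Fgf13 difference was -0.28 and the Fgf14 difference -0.30, and without I1b they were -1.98 and -0.90.

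The paired types were compared in the 14-array fit. Between the excitatory types, Fgf13 was lower in E1, at 6.03, than in E2, at 7.27, by -1.24 log2 units (SE 0.12, adjusted p 2.26e-05), in a comparison in which 7.39% of genes were called, 3.2% with E2 higher. Fgf12 differed by -0.10 (interval -0.46 to 0.25) and Fgf14 by 0.43 (interval -0.07 to 0.92), and neither was called. Between I1a and I1b, where 13.1% of genes were called, 9.78% with I1b higher, Fgf13 was lower in I1a, at 6.42, than in I1b, at 8.11, by -1.70 (SE 0.12, adjusted p 1.59e-06). Fgf12 and Fgf14 had the same sign at -0.81 (adjusted p 0.00179) and -0.60 (adjusted p 0.0490) but differed by less than 1 log2 unit. The median of all genes in this comparison was itself -0.22, and with arrays centred on their median the 3 differences were -1.45, -0.57 and -0.36. The Fgf12 probe set 1436432_at, fitted on its own, differed by -1.38 and was called (adjusted p 0.000228).

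I3a and I3b differed in no member by the call, with 9.91% of genes called. Fgf12 stood at 7.85 in I3a and 6.98 in I3b, a difference of 0.87 (SE 0.16, interval 0.51 to 1.22, adjusted p 0.00192) that was past the p threshold but below 1 log2 unit. Fgf13 differed by 0.30 (interval 0.03 to 0.56) and Fgf14 by -0.28 (interval -0.77 to 0.21). The difference in Fgf12 between the I3 types thus had the opposite sign to that between the I1 types.

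**Figure D3:**
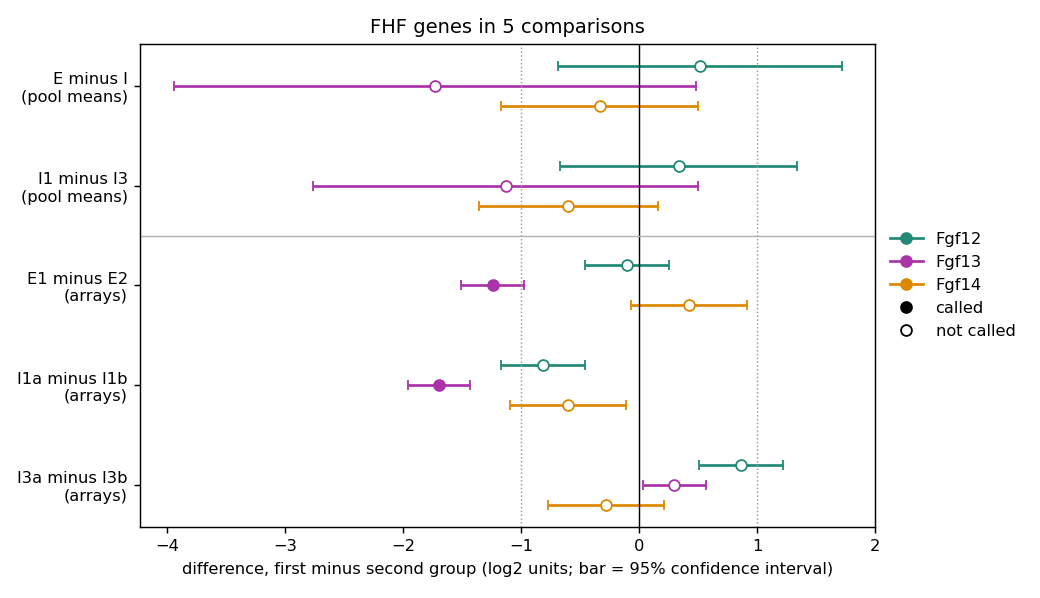
Difference in log2 signal, the group named first minus the other, for Fgf12, Fgf13 and Fgf14 in 5 comparisons, with 95% confidence intervals. The upper 2 comparisons use pool means and the lower 3 the spread between technical arrays. Filled points are called: Fgf13 in E1 minus E2 (-1.24) and in I1a minus I1b (-1.70).

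The members varied together in part. Over the 7 pools Fgf13 and Fgf14 correlated at r = 0.798 and rho = 0.750, and Fgf12 with Fgf13 at r = 0.388 and rho = 0.107. Fgf12 with Fgf14 gave r = 0.286 and rho = 0.143. Fgf13 with Fgf14 gave r = 0.908 without the 2 pools farthest from the Fgf13 median, but 0.413 without the 2 farthest from the Fgf14 median. For Fgf12 with Fgf14 r was 0.396 without the 2 farthest from the Fgf12 median and -0.88 without those of Fgf14. For Fgf12 with Fgf13 r was 0.04 without those of Fgf12 and 0.02 without those of Fgf13. These coefficients describe 7 pools that share their preparation, and a sizeable share of all genes reached as much: of the 2522 tested genes that spanned at least 1 log2 unit, 10.4% had a higher r with Fgf13 than Fgf14 did.

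The sodium channel genes, whose proteins FHFs bind, were then set beside them. Of 10 alpha subunit genes 8 had probe sets and 4 were tested, and of 4 beta subunit genes 3 were. Scn2a encodes a channel of unmyelinated axons and of the proximal initial segment. It stood at 10.34 in I2, 9.81 in I3a, 9.59 in I3b and 8.18 in I1b, and at 7.93 in E2, 7.57 in E1 and 6.73 in I1a. That is the Fgf13 order but for E1 and I1a, which changed places (r = 0.890, rho = 0.964, and r = 0.927 without the 2 pools farthest from the Fgf13 median). Of the genes compared, 3.45% had a higher r with Fgf13. Scn3b, an accessory beta subunit, gave r = 0.868 and rho = 0.929 with Fgf13, and Scn3a, an alpha subunit prominent before birth, r = 0.809 and rho = 0.821. A higher r with Fgf13 was reached by 5.04% and 9.79% of the genes compared. Without the 2 pools farthest from the Fgf13 median r was 0.900 for Scn3b and 0.483 for Scn3a. Both were below 5 in the E and I1 pools and passed the filter through I2 and, for Scn3b, I3a and I3b.

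Scn8a, the main channel of nodes and mature initial segments, ran the other way. It stood at 9.65 in E1, 9.48 in E2, 9.29 in I1b and 8.70 in I1a, and at 7.82 in I3a, 7.64 in I3b and 6.76 in I2 (r = -0.833 and rho = -0.857 with Fgf13). Of the genes compared, 2.3% had a lower r with Fgf13. Without the 2 pools farthest from the Fgf13 median r was -0.484 for Scn8a. Scn4b, the beta subunit that promotes resurgent current and rapid firing, gave r = -0.727 (-0.475 without those 2 pools), and Scn1a, an alpha subunit common in inhibitory neurons, r = -0.467. Over all 7 pools Fgf14 resembled Fgf13 in these relations, with r = 0.892 for Scn2a, 0.870 for Scn3b and -0.747 for Scn8a. A higher r with Fgf14 was reached by 2.58% and 3.77% of the genes compared, and one lower than that of Scn8a by 3.21%. Without the 2 pools farthest from the Fgf14 median r was 0.700, 0.761 and -0.774. For Fgf12 r was 0.208 with Scn2a, -0.01 with Scn8a, 0.190 with Scn4b and 0.486 with Scn1a. Without the 2 pools farthest from the Fgf12 median these were 0.197, 0.651, 0.599 and 0.591. Ion channel genes were among those by which the study typed the cells, so differences in channel genes between types are in part given.

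A pair of bacterial control transcripts also read higher in I2, I3a and I3b than in the other pools. Dap read 6.33 in I2, 6.14 in I3a, 5.86 in I3b and 5.09 in I1b, and 4.71 in E2, 4.57 in I1a and 4.70 in E1. Lys read 11.51, 12.003, 11.64, 10.84, 10.37, 10.65 and 10.49 in the same order of pools. Of the hybridisation controls, BioB read 7.74 in I2, 9.62 in I3a, 8.78 in I3b and 7.88 in I1b. It was at 8.98 in E2, 8.89 in I1a and 8.23 in E1. BioC read 9.95, 11.69, 10.92, 10.21, 11.02, 11.05 and 10.39 in the same order of pools. Cre read 14.39, 15.13, 14.87, 14.54, 14.83, 14.84 and 14.58, again in that order. The part of these in the levels of Fgf13, Fgf14 and Scn2a was not tested.

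**Figure D4:**
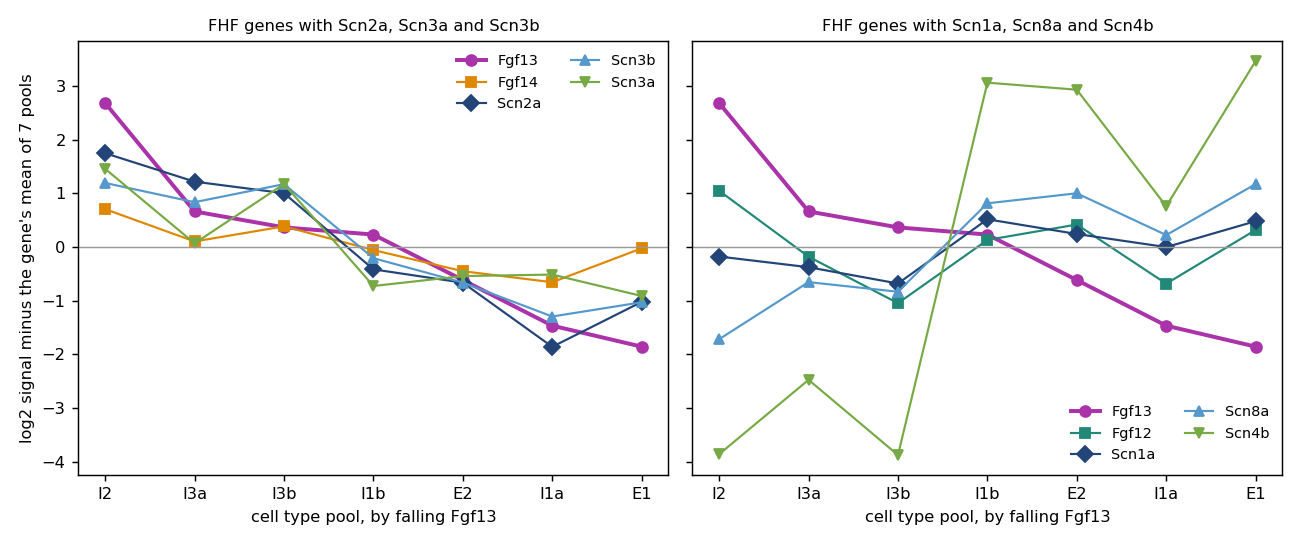
Pool means of log2 signal after subtraction of each gene's mean over 7 pools (vertical axis), with pools in order of falling Fgf13 (horizontal axis). Left, Fgf13 and Fgf14 with Scn2a, Scn3b and Scn3a, and right, Fgf13 and Fgf12 with Scn1a, Scn8a and Scn4b. I2 is the highest pool of Fgf13 and Scn2a and the lowest of Scn8a.

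In the tests of E against I and of I1 against I3 none of the 7 sodium channel genes tested was called. Of all tested genes 0.0227% and 0% were called there, so this says little about the channel genes. The median difference of the 4 alpha subunit genes was -0.26 in E minus I and -0.23 in I1 minus I3, and that of the 3 beta subunit genes -0.54 and -0.34. Over all tested genes the medians were -0.01 and -0.04. Each alpha median is the middle of 2 positive and 2 negative differences, with Scn3a among the negative ones. Scn3a was below 5 in every pool but I2. Its differences of -1.02 and -1.24 became -0.03 and -0.04 with values under 5 set to 5. The negative sign of the alpha medians thus depends on signal under 5. An unadjusted p under 0.05 was reached in E against I by 1 of 4 alpha and 1 of 3 beta subunit genes, against 6.19% of all tested genes. In I1 against I3 it was reached by 4 of 4 and 2 of 3, against 11.2% of all tested genes. The I1 against I3 count includes Scn3a, which was below 5 in all pools of both families. It also includes Scn3b, which was below 5 in both I1 pools. The Scn3b difference of -1.75 became -0.33 with values under 5 set to 5. Ion channel genes were among those used to type the cells, so these counts are in part given. Scn4b differed most, by 4.47 in E minus I (SE 1.88, adjusted p 0.753) and by 5.08 in I1 minus I3 (SE 0.84, adjusted p 0.162), with both I3 pools below 5. E minus I was -1.18 for Scn2a and 1.52 for Scn8a, and I1 minus I3 was -2.25 for Scn2a (SE 0.49, adjusted p 0.256) and 1.26 for Scn8a (SE 0.27, adjusted p 0.256). Between I1a and I1b the FHF genes had a median of -0.81, and 13.1% of all tested genes were called, 9.78% with I1b higher. There 1 of 4 alpha subunit genes was lower in I1a by the call, Scn2a at -1.44 (SE 0.10, adjusted p 8.45e-07). Of 3 beta subunit genes Scn4b was lower in I1a by -2.30, called also with values under 5 set to 5. Scn3b read 3.01 in I1a and 4.10 in I1b, and its call (-1.09) was lost with values under 5 set to 5, where the difference was 0. Between I3a and I3b 9.91% of all tested genes were called. Scn4b read 4.22 in I3a and 2.82 in I3b, and Scn3a 3.72 in I3a and 4.82 in I3b, all below 5. Their calls, at 1.40 and -1.10, were likewise lost with values under 5 set to 5, where the differences were 0 and -0.07. Between E1 and E2, where 7.39% of all tested genes were called, none of the 7 tested channel genes was. For 7 genes, none is near that share. Scn2a differed there by -0.36 (SE 0.10, adjusted p 0.0164).

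Of the listed genes of the axon initial segment 1 was called in any of the 5 comparisons, a channel subunit and not a scaffold gene. Of 8 listed, 7 had probe sets and 4 were tested. Kcnq3, a potassium channel subunit held at the initial segment, was called in all 3 paired comparisons. It differed by 1.66 in E1 minus E2, -1.45 in I1a minus I1b and -1.11 in I3a minus I3b. In these comparisons 7.39%, 13.1% and 9.91% of all tested genes were called. Its levels were 7.95 in I2, 7.80 in I1b, 7.58 in E1, 6.43 in I3b, 6.35 in I1a, 5.92 in E2 and 5.32 in I3a. Nfasc and Nrcam, adhesion proteins of the segment, and Sptan1, a spectrin of the submembrane cytoskeleton, were called in none of the 5 comparisons. None of the 5 sets I2 alone against another type, and Nrcam ran from 7.50 in I3b to 9.19 in I2. Ank3, which encodes the organiser ankyrin-G, read 2.69 or lower in every pool, and Sptbn4, which encodes its spectrin partner, 4.38 or lower. For both, low levels of the transcript and probe sets that bind poorly cannot be told apart.

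Of 11 genes for other partners and regulators of FHFs, 7 had probe sets and 3 were tested, and none was called in any of the 5 comparisons. Of all tested genes 0.0227% were called in E against I and 0% in I1 against I3. The shares were 7.39% in E1 against E2, 13.1% in I1a against I1b and 9.91% in I3a against I3b. For 3 genes, none called is near these shares. Mapk8ip2, a kinase scaffold that binds FHFs, ran from 6.26 in I1a to 7.06 in I1b. Gsk3b, a kinase that regulates the binding of Fgf14 to sodium channels, ran from 5.49 in I2 to 6.38 in E2. The related kinase Gsk3a ran from 8.02 in I2 to 9.01 in I1a.

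Secreted relatives of the family were mostly near the floor. Of 18 listed, 13 had probe sets and 2 were tested. Fgf9, a factor made by neurons, read 9.22 in E1 against 8.16 in E2, a difference of 1.07 (SE 0.12, adjusted p 7.23e-05), and ran from 7.07 in I3a to 8.32 in I1b among the I pools. Fgf1, which lacks a classical secretion signal, was lower in I3a, at 4.22, than in I3b, at 5.60 (-1.38, adjusted p 0.00361). The I3a level is below 5, and with values under 5 set to 5 the difference was -0.60 and not called (adjusted p 0.0673). Fgf1 read 7.17 in E1 and 7.14 in E2. None of the 7 receptor and co-receptor genes was tested, the highest pool mean being 4.70 for Fgfr1 in I3b.

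**Figure D5:**
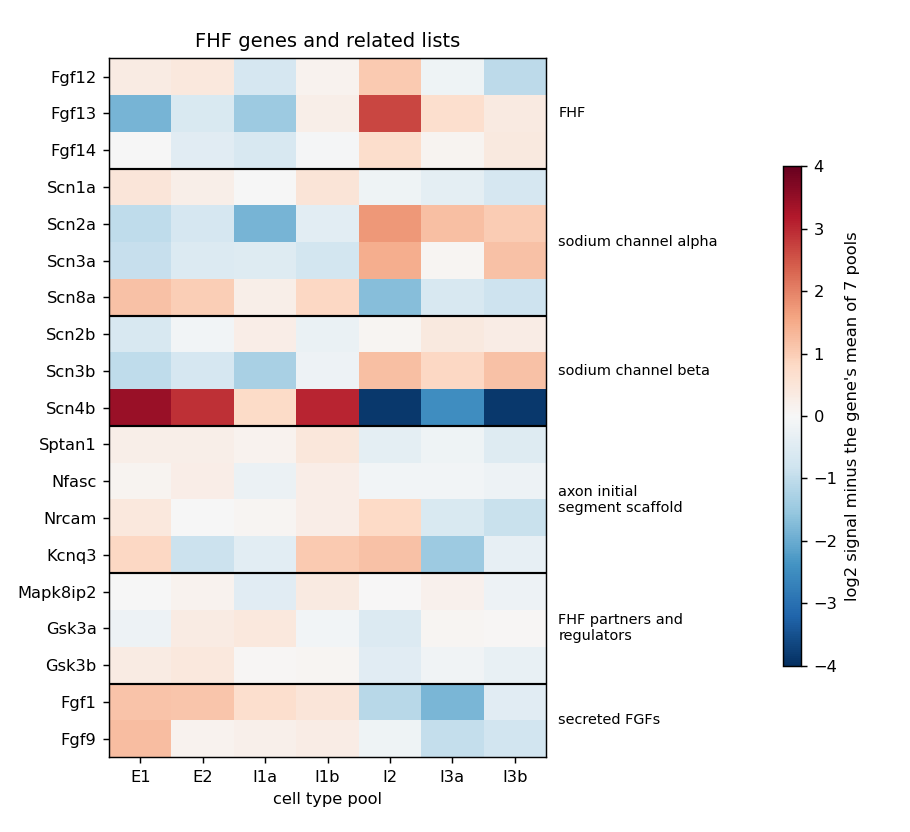
Pool means of log2 signal in 7 cell type pools (columns), each row centred on its own mean. Rows are the tested FHF genes, sodium channel subunits, initial segment genes (labelled scaffold), FHF partners and secreted factors. Red is above and blue below that mean. Fgf13 and Scn2a are reddest in I2, where Scn8a and Scn4b are blue.

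The genes whose pattern over the 7 pools was most like that of a member were taken as the 5 with the highest Pearson r among those spanning at least 1 log2 unit, 2522 for each member. For Fgf13 these were Tbpl1, a relative of the TATA-binding protein, at r = 0.986, Cggbp1, a CGG-repeat binding protein, at 0.981, Ctnna1, alpha-catenin of cell junctions, at 0.976, Eid1, an inhibitor of differentiation, at 0.970, and 1 gene with a clone name. Tbpl1 read 5.13 in I2 and 3.41 to 4.27 in the other 6 pools, so it passed the filter through I2, also the highest pool of Fgf13. For Fgf12 they were Olfm1, a secreted glycoprotein of neurons, at r = 0.951, Sesn3, a stress-response sestrin, at 0.941, Col5a1, a fibrillar collagen, at 0.930, Chrna4, a nicotinic receptor subunit, at 0.927, and 1 with a clone name. For Fgf14 they were Gdpd1, a glycerophosphodiesterase, at 0.975, Top2b, a DNA topoisomerase, at 0.973, Xrn2, an exoribonuclease, at 0.963, Jmjd1c, a histone demethylase relative, at 0.961, and Pfdn2, a prefoldin subunit, at 0.959. Gdpd1 read 6.18 in I2, 5.38 in I3b and 5.17 in I3a, and 3.72 to 4.88 in the E and I1 pools. It thus passed the filter through the pools in which Fgf14 was highest. The 3 lists share no gene. High values of r over 7 points are common when many genes are searched.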

How the data were processed

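Signals of 14 arrays (7 pools, 2 technical replicates each) were analysed. The authors' deposited log2 values came from affy and GCRMA, per the submitters' processing notes. By default GCRMA subtracts a sequence-based background, quantile normalizes arrays and condenses probes into probe sets. Versions are not given in the sources used here, and the range of the values gave the log base. Of 30843 probe sets, 24034 map to 1 gene symbol, 477 to several (not used) and 64 are controls. Symbols were updated by Entrez identifier (23883 matched) through RefSeq, GRCm38.p6, which also supplied the promoter windows. Each of 16244 genes was represented by its brightest probe set over all arrays, and genes with a type mean of 5 or more were tested. Fits used limma 3.58.1 in R 4.3.3 (lmFit, eBayes with an intensity trend): E against I on 7 pool means (5 residual degrees of freedom), I1 against I3 on pool means in 4 families (3), and pairs of types on 14 arrays (7). Calls required a Benjamini-Hochberg adjusted p under 0.05 and 1 log2 unit. Fits were tested on simulated data. Figures used matplotlib 3.10.9. The members, gene lists and comparisons were chosen with earlier results of these data known. All members were named. Of each related list up to 4 genes with the largest difference per comparison could be named, plus called genes. For each tested member the 5 genes most like it by Pearson r over pool means were named, clone-type names excepted. Alternatives covered the probe set rule, filter, floor, normalization, trend, blocks and left-out arrays and pools.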

Additional observations from a re-analysis of the deposited data

Results flagged for a closer look

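Among the 5 inhibitory pools, 19 tested genes of the FHF and related lists were examined for a pool far from the rest, and 1 was found. Nfasc, an adhesion protein of the axon initial segment, read 7.18 in I1b, whereas the next highest inhibitory pool was at 6.81 and the lowest at 6.69. Chance picks out about 1 in 20 such groups. No FHF gene had such a pool.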

How the results depend on the processing

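No Fgf13 difference turned its sign or its call in 79 alternative values over the 5 comparisons. Many of these could not move it, since the single Fgf13 probe set read above 5 on every array. The probe set rule, filter, floor, trend and blocks could thus move the p-value but not the difference. Leaving out pools outside the compared groups could not move the difference either. In E against I it ran from -2.76 to -1.11, in I1 against I3 from -1.98 to -0.28, in E1 against E2 from -1.33 to -1.15 and in I1a against I1b from -1.79 to -1.43. In I3a against I3b it ran from 0.15 to 0.44, with adjusted p from 0.00442 to 0.477, and stayed below 1 log2 unit. The Fgf12 sign turned in I1 against I3 without I1b (-0.07) or I3b (-0.10), and in E1 against E2 with the mean of all probe sets of a gene (0.044), without E1 replicate 2 (0.12) and without E2 replicate 1 (0.0013). Its range over single pools or arrays left out was -0.10 to 0.77 in I1 against I3 and -0.32 to 0.12 in E1 against E2. The Fgf14 sign turned in I3a against I3b with the mean of all probe sets (0.16). Fgf12 was called in I1a against I1b with that mean (-1.10) and without I1a replicate 1 (-1.02), so that 2 members were called there instead of 1, within a range of 1 to 2 over single arrays left out. Fgf14 was called in 1 pair of types instead of 3 with that mean, with quantile normalization and with centred arrays. The cause was not tested.

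Counts over all genes moved as follows. In E against I, 1 gene was called, against 2 with no filter, a filter at 7 or values under 5 set to 5, 0 without the trend or without replicate 1 of each pool, 0 to 2 with single pools left out, and 6 with the pool as a random block. Without the I1a, I1b and I3a pools, which was added after seeing the data, 7 were called. In I1 against I3, 0 were called, against 1 with no filter or no trend, 2 with values under 5 set to 5 and 114 with the random block. In E1 against E2 the count was 326, against 187 with mean probe sets, 193 with the filter at 7 and 217 with values set to 5. In I1a against I1b it was 579, against 309, 304 and 358, and in I3a against I3b 437, against 246, 218 and 256. The random block and other settings on pool means called no member. Replicate numbers are technical and not stated to be shared between pools, and deviations of same-numbered arrays correlated between -0.117 and 0.212. With the replicate number as a block 327, 579 and 436 genes were called in the 3 paired comparisons, and member calls were 1, 1 and 0 as without it. Signals near the floor, as for Fgf11, limit what can be said of low levels.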
